A study of Mus musculus with 4 samples.

Results

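Immediate early genes and other genes of short-lived mRNA were examined as a group of 34 listed genes, taken by symbol from a table of 30282 mouse genes. All 34 were found. The IAA group held 2 libraries of V6.5 mouse embryonic stem cells (an established line) in which the Pol II subunit RPB3 carried a mAID-GFP degron tag. These cells received 1 µg/ml doxycycline for 12 h, which induces TIR1, and then 500 µM IAA, the auxin that lets TIR1 mark the tagged protein for degradation. The IAA samples are labelled with 12 h of treatment, but the treatment text elsewhere mentions a depletion of 1 h; which of these applies is unresolved. The untreated group held 2 libraries of the same degron cells after doxycycline without IAA. All 4 libraries therefore share the tag, TIR1 and doxycycline, and IAA without a degron was not analysed here. The medium of both groups held 3 µM CHIR99021, an inhibitor of GSK3, and 0.5 µM PD0325901, an inhibitor of MEK. Cells of the Drosophila line S2 were used as a spike-in. How many clones the degron line represents, and whether the libraries came from separate cultures, is not given, so the p-values speak to the spread of these 4 libraries alone.

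Immediate early genes are transcribed within minutes of a stimulus and need no new protein for it. Growth factor signals reach them through ERK and its upstream kinase MEK to the ternary complex factors bound beside SRF at CArG boxes, and through CREB at cyclic AMP response elements. Many are short genes with few introns, and many of their mRNAs carry AU-rich elements, runs built on the pentamer ATTTA (with U for T in the RNA) in the 3′ UTR, through which decay factors recruit deadenylases. Many of the encoded proteins are transcription factors of the AP-1, KLF and NR4A families or feedback inhibitors of the signal that induced them. An mRNA that decays fast follows a change in its transcription sooner than a stable mRNA.

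The ATTTA pentamer was present in the 3′ UTR of 30 of the 34 genes (88.2%), against 65.1% of the 12826 protein-coding genes tested that had an annotated 3′ UTR. The longer run TTATTTATT was present in 8 of the 34 (23.5%), against 7.09% of those genes. The genes held 2.28 pentamers per kb of 3′ UTR, against 1.78 per kb. The windows below show, for 6 of them, the 30 bases of the 3′ UTR that held most pentamers, 5′ to 3′ on the mRNA strand with each ATTTA in capitals. They were taken because Rhob, Jun, Ier3 and Tnfaip3 were among the members that changed most and Fos and Dusp1 are classic immediate early genes that were not called.
Rhob: attgttactgaATTTATTTAaacgctgaag
Jun: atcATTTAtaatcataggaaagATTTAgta
Fos: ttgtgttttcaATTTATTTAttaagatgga
Dusp1: agctggtccttATTTATTTAacacccccct
Ier3: ctaattaatATTTAtgtATTTAtgtatatc
Tnfaip3: ttATTTAttatgaacttccaagttATTTAa

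In GRCm38 these windows lie at chr12:8498208-8498237 (minus strand, Rhob), chr4:95049207-95049236 (minus strand, Jun) and chr12:85477100-85477129 (plus strand, Fos). Those of the other three genes lie at chr17:26506157-26506186 (minus strand, Dusp1), chr17:35822484-35822513 (plus strand, Ier3) and chr10:19001753-19001782 (minus strand, Tnfaip3). In Rhob, Fos and Dusp1 the capitals form a run of overlapping pentamers, whereas in Jun, Ier3 and Tnfaip3 the pentamers stand apart. Overlapping pentamers were thus present in a gene that rose as well as in genes that were not called. The windows of Fos, Dusp1 and Tnfaip3 held the longer run TTATTTATT, which the 3′ UTR of Rhob lacked.

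The libraries held between 8724737 and 9194432 reads recovered over the mouse genes. Values are normalised read counts, that is, reads divided by 1 size factor per library by the authors. A gene was tested when its mean over the 4 libraries was at least 10, which 14928 genes reached, and was called higher or lower at a Benjamini-Hochberg adjusted p under 0.05 in limma's test across all of them. After IAA, 1650 genes were called higher and 4312 lower, and the median log2 fold change of all genes tested was -0.11. That shift depends on the scaling: with median-of-ratios factors in place of the deposited ones 3037 genes were higher and 3054 lower and the median was -0.01. Bulk RNA cannot tell apart fewer cells of a kind and less RNA per cell. The mRNA of Polr2c, which encodes RPB3, was at 3242 and 3158 in the IAA libraries, against 2726 and 2885 in the untreated libraries (log2 fold change 0.19, SE 0.04, adjusted p = 0.00116 in limma's test). The degron acts on the protein, so this value does not check the labels. All 10 embryonic stem cell markers were detected in every library, at 2114 to 12264. The summed level of 5 fibroblast markers was 349 to 358 in IAA and 425 to 495 in untreated libraries, and 4 of them were above 0 in every library; Thy1 and Col1a1 were called lower (log2 fold changes -0.78 and -0.76). The 8 markers of differentiated cells summed to 319 to 330 in IAA and 308 to 310 in untreated libraries. Of the stem cell markers 5 were called higher and 3 lower, among them Tbx3 (log2 fold change 0.57), Klf4 (0.52) and Dppa5a (-0.36). Of the differentiated markers none was called by limma, nor at an unadjusted p under 0.05. The 5 tested had log2 fold changes of 0.20 (Sox1), 0.13 (Gata4), 0.53 (Hand1), -0.35 (Sox17) and -0.87 (Gata6). Hand1, Sox17 and Gata6 were at only 5 to 27 in all libraries. The part of these lists in the results below was not tested.

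The short-lived mRNAs did not all move in the same direction. Of the 34 members 29 were tested. After IAA, when 11.1% of all genes tested were called higher and 28.9% lower, 9 of them were called higher (Rhob, Ier5l, Jun, Jund, Ier2, Gadd45b, Btg2, Klf9 and Klf10) and 5 lower (Tnfaip3, Ier3, Trib1, Nr4a1 and Sgk1), while 15 were not called. The median log2 fold change of the 29 was 0.12, which is 0.23 above the median of all genes tested, and it stood 0.23 above that median with median-of-ratios factors too. Both IAA libraries lay above both untreated ones for 14 of the 29 and below for 5, against 22.5% and 45.6% of all genes tested, and the groups overlapped for 10. With median-of-ratios factors, which called 20.3% of all genes higher and 20.5% lower, 12 members were called higher and 3 lower: Srf, Csrnp1 and Dusp1 joined the higher ones, and Nr4a1 and Sgk1 left the lower ones. In the authors' deposited table, of the 27 members with an adjusted p, 5 passed 0.05 as higher (Rhob, Ier2, Jund, Klf9 and Ier5l) and 0 as lower, against 2.47% higher and 9.57% lower of all genes with an adjusted p there. By the authors' unadjusted p under 0.05, from DESeq2, 8 members were higher and 0 lower, beside 670 higher and 2147 lower of all genes.

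**Figure D1:**
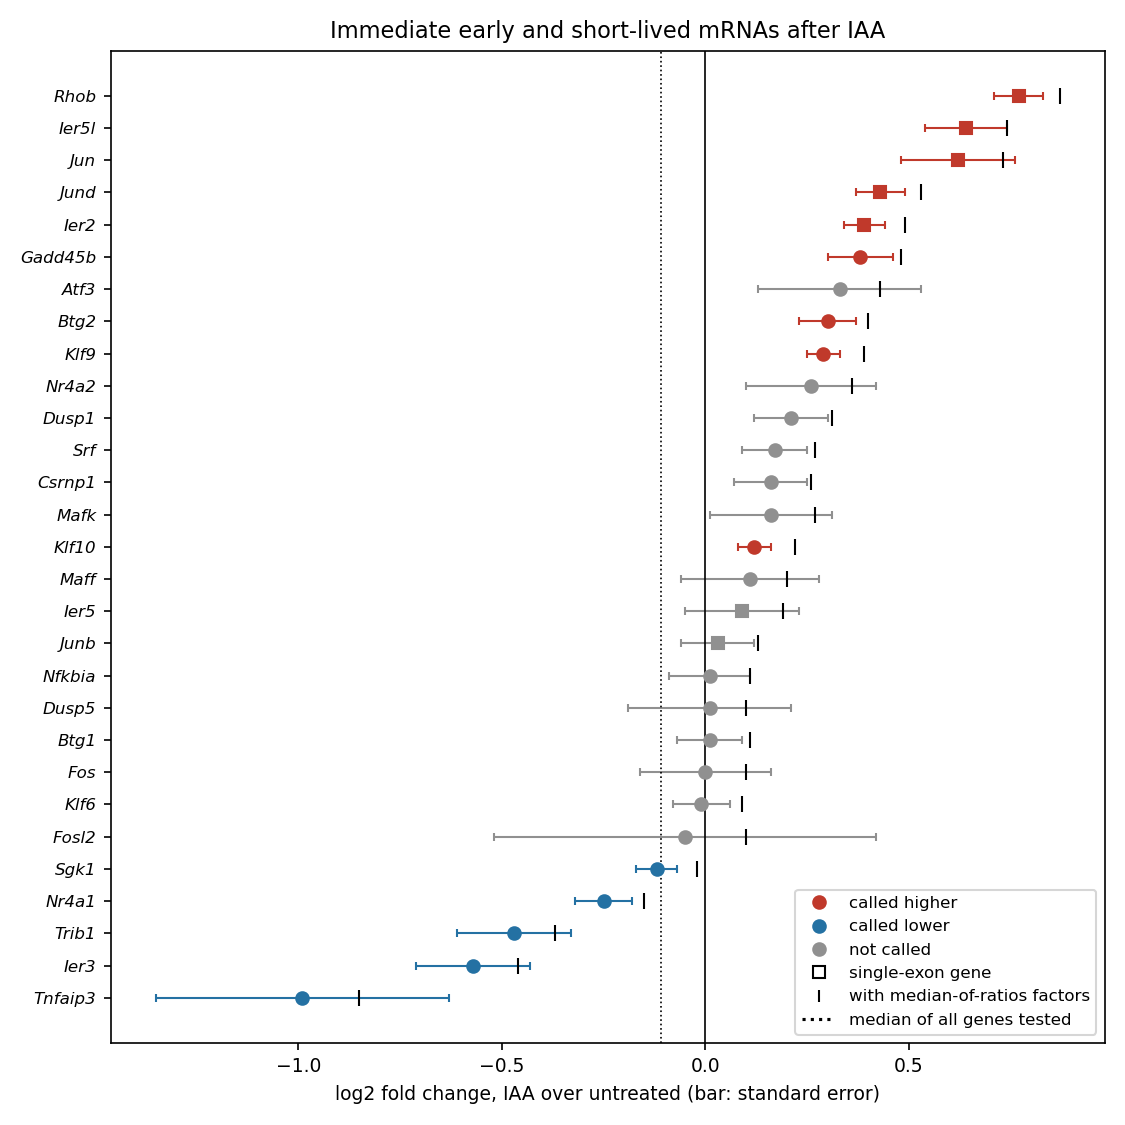
Log2 fold change (IAA over untreated) of the 29 members tested, with its standard error from limma; squares mark single-exon genes, vertical ticks the value with median-of-ratios factors and the dotted line the median of all genes tested. The points run from -0.99 (Tnfaip3) to 0.77 (Rhob), and the 15 members that were not called lie to the right of the dotted line.

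The summed level of the 34 genes was 17625 and 16937 normalised read counts in the IAA libraries, against 15025 and 15465 in the untreated libraries. It made up 0.188% and 0.183% of all normalised counts in the IAA libraries, against 0.152% and 0.153% in the untreated libraries. Each IAA library thus carried more of these mRNAs than either untreated library, and the abundant Ier2, Klf9, Jund and Rhob gave much of the difference. Per kb of the representative transcript, Ier2 stood at 966 in IAA and 735 in untreated cells, Sgk1 at 791 in IAA and 859 in untreated cells, and Klf10 at 771 in IAA and 707 in untreated cells. Jund, at 707 in IAA and 525 in untreated cells, and Klf9, at 599 in IAA and 492 in untreated cells, came next in both groups. Rhob stood at 455 per kb in IAA cells, the sixth highest level of the members, against 266 in untreated cells, the seventh highest. At the low end, Fos stood at 39.1 per kb in both groups, Tnfaip3 at 3.39 in IAA and 6.45 in untreated cells, and Egr3 at 0.127 in IAA and 0.254 in untreated cells. Egr2, Egr3, Fosl1 and Fosb lay below 10 normalised read counts in every library, as did Gadd45g.

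**Figure D2:**
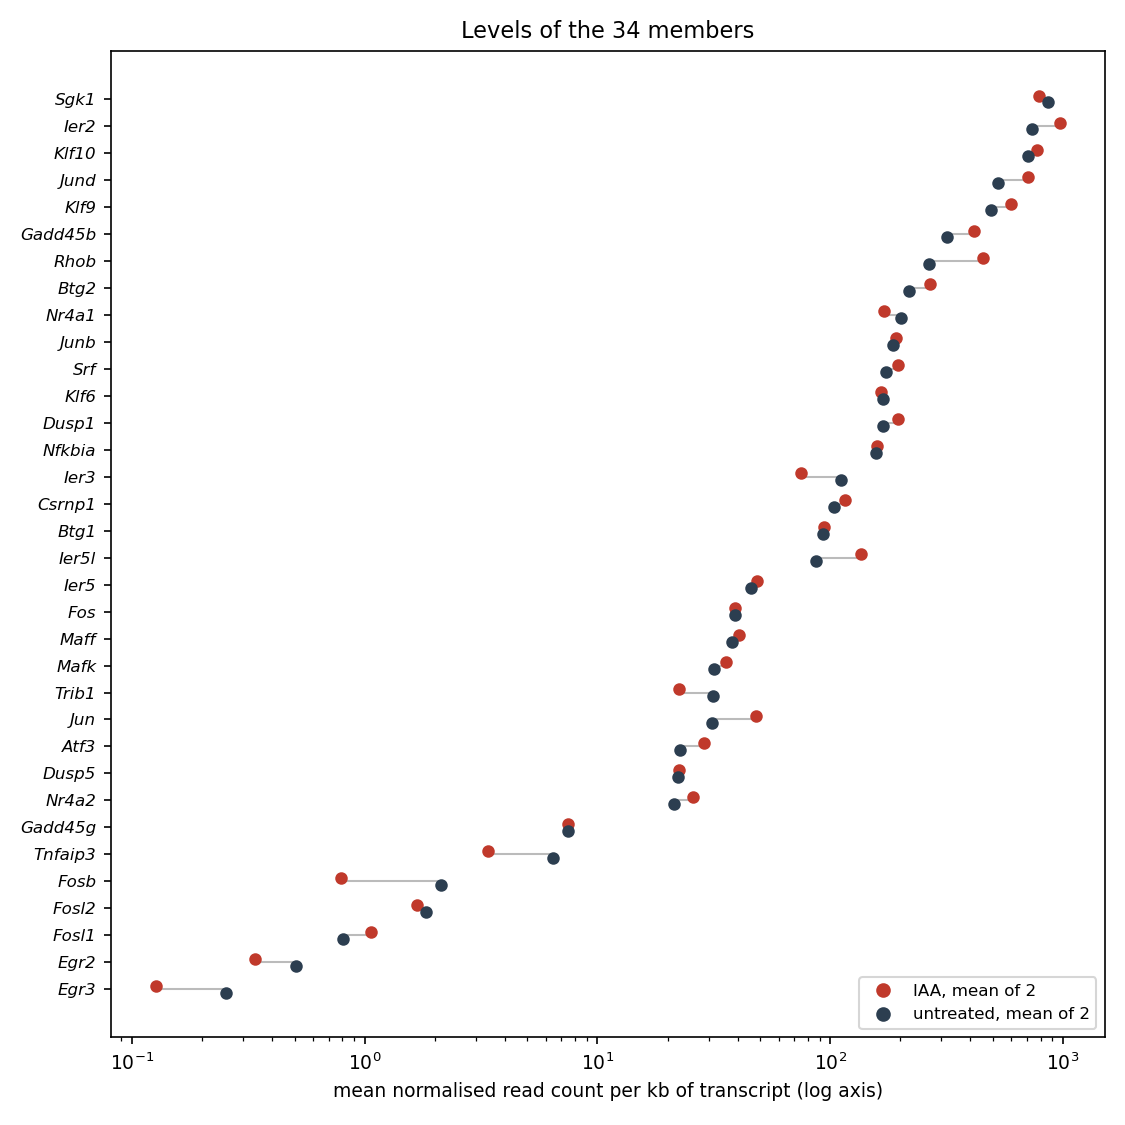
Normalised read counts per kb of transcript (log axis) of the 34 members, IAA and untreated. Levels span from Egr3 (0.127 in IAA, 0.254 in untreated cells) to Ier2 (966 in IAA) and Sgk1 (859 in untreated cells).

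Among the subunits of AP-1, the dimeric transcription factor of Jun and Fos proteins, Jun and Jund rose and no Fos family member was called. Jun, the Jun subunit that gives the family its name, was at 158 and 149 normalised read counts in IAA libraries, against 106 and 93 in untreated libraries. Both IAA values lay well above both untreated values, and the means were 154 ± 6.36 in IAA and 99.5 ± 9.19 in untreated cells (SD, n = 2 each), a log2 fold change of 0.62 (SE 0.14, adjusted p = 0.00107 in limma's test). Jund, a Jun subunit that is expressed at a high basal level in many cells, was at 1253 and 1106 in IAA libraries, against 836 and 914 in untreated libraries. Again the groups did not overlap, although the IAA libraries differed from each other by more than the untreated ones (log2 fold change 0.43, SE 0.06, adjusted p = 2.61e-05 in limma's test). Junb, the third Jun subunit, was at 376 and 315 in IAA libraries, against 340 and 334 in untreated libraries, and the groups overlapped (log2 fold change 0.03, SE 0.09). Fos itself was at 86 and 79 in IAA libraries, against 80 and 85 in untreated libraries. The means were equal at 82.5 in both groups, with SD 4.95 in IAA and 3.54 in untreated cells, and the SE of the log2 fold change was 0.16. Fosl2 was at 7 to 17 in all libraries, and Fosb and Fosl1, at 1 to 8, were too low to test. Fosb was at 4 and 2 in IAA libraries, against 8 and 8 in untreated libraries. Some counts cannot be assigned to 1 strand, since the strand setting is not given: exons of Jun share 232 bp with the antisense gene Junos, which was at 15 and 14 in IAA libraries and 3 and 9 in untreated libraries. Those of Jund share 877 bp with Gm11175 and those of Junb 173 bp with Prdx2, each on the opposite strand. Overlaps of this kind also touch Fosl1, Mafk, Csrnp1, Dusp1 and Dusp5.

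The remaining bZIP members were not called. Atf3, a stress-induced factor of the ATF family, was at 60 and 54 in IAA libraries, against 45 and 45 in untreated libraries, without overlap (log2 fold change 0.33, SE 0.20, adjusted p = 0.207 in limma's test). Maff and Mafk, small Maf proteins that lack an activation domain of their own, had log2 fold changes of 0.11 (SE 0.17) and 0.16 (SE 0.15) with overlapping groups. All 3 had a positive fold change, and none passed the test.

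Of the zinc finger factors, Klf9 and Klf10 rose. Klf9, a KLF repressor known as a target of glucocorticoid and thyroid hormone receptors, was at 2678 and 2697 in IAA libraries, against 2250 and 2161 in untreated libraries. The groups were far apart for their spread, with means of 2688 ± 13.4 in IAA and 2206 ± 62.9 in untreated cells (SD, n = 2 each) and a log2 fold change of 0.29 (SE 0.04, adjusted p = 2.42e-05 in limma's test). Klf10, a repressor first described as induced early by TGF-beta, was at 2330 and 2361 in IAA libraries, against 2215 and 2092 in untreated libraries. Its rise was the smallest of the called ones, with a log2 fold change of 0.12 (SE 0.04, adjusted p = 0.0324 in limma's test). On unrounded values it was no longer called without IAA replicate 1 (adjusted p = 0.085 in limma's test), without IAA replicate 2 (0.154) or without untreated replicate 2 (0.214). Klf6, a KLF factor linked to growth arrest, was at 658 to 762 in all libraries with overlapping groups (log2 fold change -0.01, SE 0.07). Egr2 and Egr3, early growth response factors, had 0 to 3 normalised read counts per library and could not be compared.

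The nuclear receptors of the NR4A family, which are orphan receptors rapidly induced by many signals, gave opposite signs. Nr4a1 was at 426 and 440 in IAA libraries, against 525 and 508 in untreated libraries. The groups did not overlap and the log2 fold change was -0.25 (SE 0.07, adjusted p = 0.00869 in limma's test). The call depended on the scaling: with median-of-ratios factors the log2 fold change was -0.15 with an adjusted p of 0.0949 in limma's test. On unrounded values it was not called without IAA replicate 1 (adjusted p = 0.0548 in limma's test). Nr4a2 was at 95 and 89 in IAA libraries, against 76 and 77 in untreated libraries, also without overlap, but was not called (log2 fold change 0.26, SE 0.16).

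Of the IER genes, named as immediate early response genes, and the other nuclear regulators, Ier2 and Ier5l rose. Ier2 was at 1488 and 1451 in IAA libraries, against 1115 and 1122 in untreated libraries. The groups differed by far more than the replicates, with means of 1469.5 ± 26.2 in IAA and 1118 ± 4.95 in untreated cells (SD, n = 2 each) and a log2 fold change of 0.39 (SE 0.05, adjusted p = 4.09e-06 in limma's test). Ier5l, the paralogue of Ier5, was at 393 and 338 in IAA libraries, against 227 and 240 in untreated libraries. Its level was 1.56-fold that of untreated cells (log2 fold change 0.64, SE 0.10, adjusted p = 2.42e-05 in limma's test). Ier5, which in human cells acts as a cofactor of the heat shock factor HSF1, was at 180 and 139 in IAA libraries, against 134 and 164 in untreated libraries. The groups of Ier5 overlapped (log2 fold change 0.09, SE 0.14), so Ier5 and Ier5l differed in their calls, a difference that was not tested. Srf, the factor that binds CArG boxes, was at 534 and 486 in IAA libraries, against 430 and 475 in untreated libraries. Its log2 fold change of 0.17 (SE 0.08) was not called with the deposited scaling (adjusted p = 0.0856 in limma's test) and was called under median-of-ratios scaling (0.27, with 0.00198 as limma's adjusted p). Csrnp1, a nuclear protein induced by AXIN1 in human cells, showed the same (log2 fold change 0.16, SE 0.09; 0.26 under median-of-ratios scaling, where limma's adjusted p was 0.0153).

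**Figure D3:**
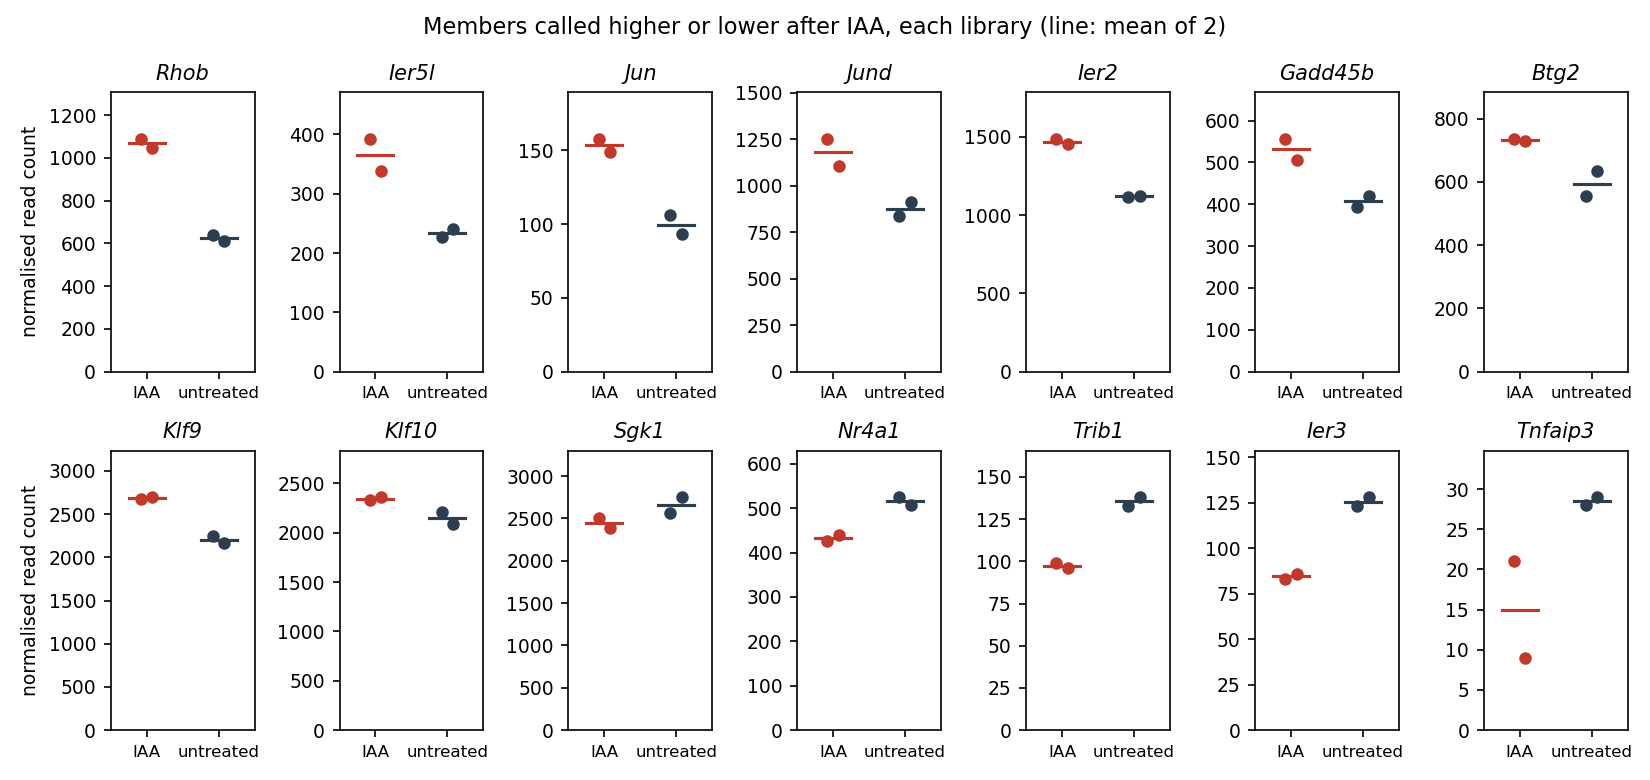
Normalised read counts of the 14 called members in each library, IAA left of untreated, with the mean of each group as a line. Both IAA libraries lie above both untreated ones in the 9 members called higher and below them in the 5 called lower; the IAA libraries of Tnfaip3 (21 and 9) are the most spread for their level.

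Among the antiproliferative BTG proteins, which bind the CCR4-NOT deadenylase, Btg2 rose. It was at 737 and 728 in IAA libraries, against 556 and 634 in untreated libraries, which differed more from each other than the IAA libraries did (log2 fold change 0.30, SE 0.07, adjusted p = 0.00177 in limma's test). Btg1 was at 481 and 459 in IAA libraries, within the 435 and 498 of the untreated libraries. The dual specificity phosphatases that inactivate MAP kinases were not called. Dusp1, which acts on p38 and JNK as well as ERK, was at 400 and 375 in IAA libraries, against 315 and 354 in untreated libraries. The groups did not overlap, and the log2 fold change of 0.21 (SE 0.09) narrowly missed the threshold (adjusted p = 0.055 in limma's test). With median-of-ratios factors it was 0.31 and was called (adjusted p = 0.00172 in limma's test). Dusp5, a nuclear phosphatase of ERK, was at 51 to 60 in all libraries (log2 fold change 0.01, SE 0.20).

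The signalling members split. Rhob, a small GTPase with a short-lived mRNA and protein, showed the largest rise of all members: 1090 and 1046 in IAA libraries, against 640 and 610 in untreated libraries. The means were 1068 ± 31.1 in IAA and 625 ± 21.2 in untreated cells (SD, n = 2 each), a 1.71-fold difference (log2 fold change 0.77, SE 0.06, adjusted p = 8.07e-09 in limma's test). In the authors' deposited table Rhob had a log2 fold change of 0.77 and an adjusted p of 2.79e-07. Sgk1, a kinase induced by serum and glucocorticoids, was at 2511 and 2386 in IAA libraries, against 2564 and 2752 in untreated libraries. This small difference just passed (log2 fold change -0.12, SE 0.05, adjusted p = 0.0453 in limma's test) and was -0.02 under median-of-ratios scaling (0.781 as limma's adjusted p). On unrounded values Sgk1 was not called without IAA replicate 2 (adjusted p = 0.32 in limma's test) or without untreated replicate 2 (0.319). Trib1, a pseudokinase that brings substrates to the ubiquitin ligase COP1, was at 99 and 96 in IAA libraries, against 133 and 138 in untreated libraries. Its replicates lay close together and the groups apart (log2 fold change -0.47, SE 0.14, adjusted p = 0.00955 in limma's test), and it was lower under median-of-ratios scaling as well (-0.37, with 0.0312 as limma's adjusted p).

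Of the feedback inhibitors of NF-kB, Tnfaip3 fell and Nfkbia was not called. Tnfaip3, the ubiquitin-editing enzyme A20, was at 21 and 9 in IAA libraries, against 28 and 29 in untreated libraries. Both IAA values were lower, yet they differed more from each other than one of them did from the untreated ones, and the counts are small (log2 fold change -0.99, SE 0.36, adjusted p = 0.0342 in limma's test). On unrounded values the log2 fold change was -0.40 without IAA replicate 2 (adjusted p = 0.446 in limma's test), and the call was also lost without untreated replicate 1 (0.0813) or 2 (0.0893). Nfkbia, which encodes the inhibitor IkBα, was at 268 and 235 in IAA libraries, against 236 and 262 in untreated libraries. Stress and survival genes split too. Ier3, which encodes a protein that modulates apoptosis, was at 83 and 86 in IAA libraries, against 123 and 128 in untreated libraries. Its replicates lay close together and the groups lay apart (log2 fold change -0.57, SE 0.14, adjusted p = 0.00386 in limma's test; -0.46 with median-of-ratios factors). Gadd45b, a stress sensor that activates the kinase MEKK4, was at 557 and 506 in IAA libraries, against 394 and 420 in untreated libraries. All IAA values were above all untreated ones (log2 fold change 0.38, SE 0.08, adjusted p = 0.000527 in limma's test). Gadd45g was at 7 to 9 in all libraries and was not tested.

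In gene structure the members stood apart from most genes by their small number of introns. A single exon in the representative transcript was found in 7 of the 34 (20.6%), against 2.49% of the 13043 protein-coding genes tested, and at most 4 exons in 82.4%, against 20.7%. The median gene span was 7602 bp, against 23781 bp, and the median exon number 4, against 9. The single-exon members were Jun, Junb, Jund, Ier2, Ier5, Ier5l and Rhob. Of these, 5 were called higher and none lower by limma, and at an unadjusted p under 0.05 the counts were the same, with a median log2 fold change of 0.43. The other pair, Junb and Ier5, were among the members not called. Of the 22 tested members with introns 4 were called higher and 5 lower, with a median of 0.06. The higher ones were Btg2, Klf9, Gadd45b and Klf10, with 2 to 4 exons. Of all genes tested 11.1% were called higher and 28.9% lower. The members called lower had 2 exons (Ier3), 3 (Trib1), 8 (Nr4a1), 9 (Tnfaip3) and 14 (Sgk1) in the representative transcript. The split by exon number was chosen after the values were seen.

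Protein-coding genes as a whole varied with exon number in the same sense. Of 325 single-exon genes 24.6% were called higher and 9.54% lower, with a median log2 fold change of 0.13. Of genes with 3 to 4 exons 13.5% were higher and 21.5% lower (median -0.06), and of genes with 20 or more exons 9.53% were higher and 43.8% lower (median -0.17). With median-of-ratios factors the medians of these classes were 0.23, 0.04 and -0.07, so the order of the classes stayed while the sign of the class with 3 to 4 exons changed. Among genes that span up to 5 kb the order held as far as 9 exons, with medians of 0.12 for 1 exon, -0.16 for 3 to 4 exons and -0.21 for 5 to 9 exons. By gene span, the medians were -0.10 up to 5 kb, -0.10 at 50 to 100 kb and -0.18 over 100 kb, while the share called lower was 26.7% up to 5 kb, 33.0% at 50 to 100 kb and 38.3% over 100 kb. Of the 12 members that span up to 5 kb, which include the 7 with a single exon, 7 were higher and 1 lower. Their median was 0.34. Of all protein-coding genes of that span 11.9% were higher and 26.7% lower. The single-exon members, with a median of 0.43, lay above the median of all single-exon genes, a difference that was not tested.

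**Figure D4:**
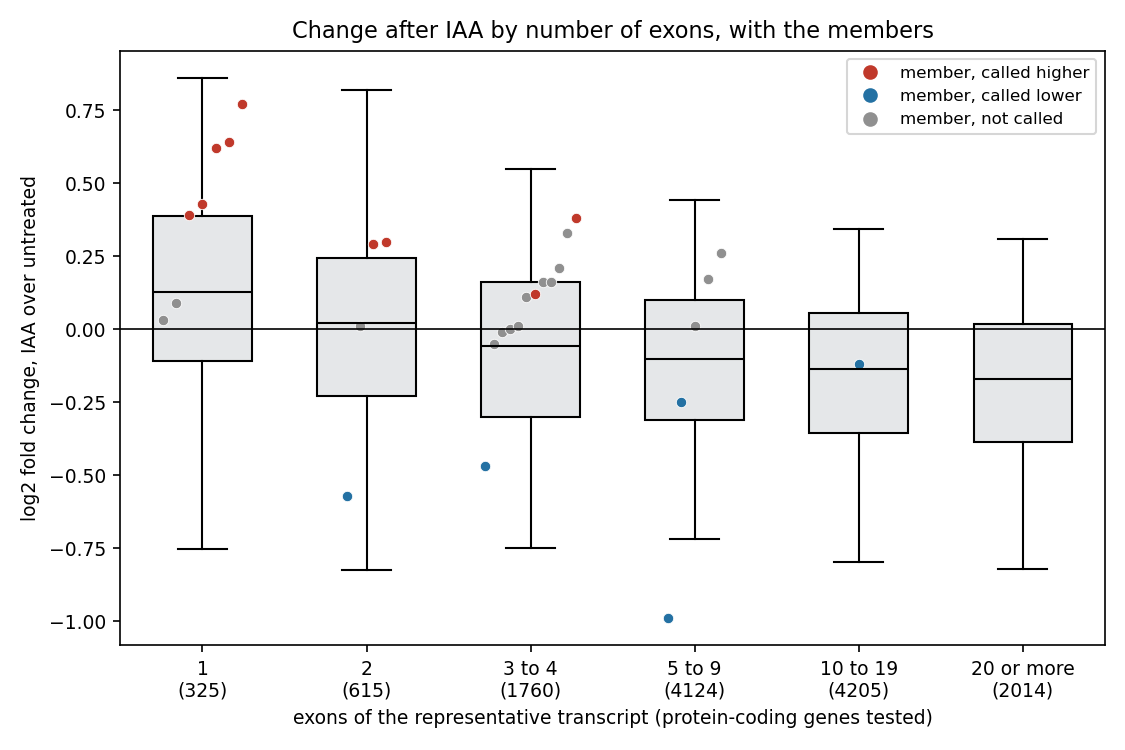
Log2 fold change (IAA over untreated) by exon number for protein-coding genes tested, with the median as a line, the quartiles as a box and the 5th to 95th percentile as whiskers, and the members drawn as points. The medians of all genes descend from 0.13 with 1 exon to -0.17 with 20 or more, and the single-exon members have a median of 0.43.

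By number of AU-rich pentamers, members called higher occurred in every class. The 3 tested members without ATTTA were Ier2 and Gadd45b, which were higher, and Trib1, which was lower. Of the 6 with 1 to 2 pentamers 1 was higher (Jund) and 0 lower by limma, and their median log2 fold change was 0.06. At an unadjusted p under 0.05 in limma the counts were the same except for Srf. Of all protein-coding genes with 1 to 2 pentamers 11.8% were higher and 31.3% lower. Of the 16 with 3 to 5 pentamers 5 were higher and 4 lower (median 0.16), where 14.2% of all protein-coding genes in that class were higher and 29.3% lower. The 4 with 6 or more (Fosl2, Klf6, Klf9 and Btg1) had a median of -0.00, and Klf9 was higher. Of all protein-coding genes with 6 to 9 pentamers, the class of Fosl2, Klf6 and Klf9, 15.7% were higher and 26.4% lower. Btg1 held 11 and belongs with the genes of 10 or more given below. The classes hold few members and were not tested against each other. The window of Rhob, the member with the largest rise, held overlapping pentamers like that of Fos, which was not called. Unlike Fos, Rhob lacked the longer run TTATTTATT. That run was present in Fos, Fosl2, Maff, Srf, Csrnp1, Dusp1, Nfkbia and Tnfaip3. Of these only Tnfaip3 was called, as lower, where 11.1% of all genes tested were higher and 28.9% lower. With median-of-ratios factors Srf, Csrnp1 and Dusp1 were called higher. The part of the longer run was not tested. Over all protein-coding genes, 8.36% without ATTTA were higher and 34.2% lower, and 17.4% with 10 or more were higher and 28.0% lower. Their medians were -0.16 without and -0.04 with 10 or more, a range smaller than that between classes of exon number. The number of pentamers grows with the length of the 3′ UTR, and the part of that length was not tested.

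Promoters of RefSeq (GRCm38.p6), reaching 250 bases before and 50 after the start site, were matched by symbol for 29 of the 34. Some start sites lay far from that of the representative transcript. The distance was largest in Nr4a1 (12577 bp), Nr4a2 (8965 bp), Mafk (5978 bp), Csrnp1 (5688 bp) and Jund (1210 bp). Motifs were searched on both strands. TATAAA was found in 9 of the 29 (31.0%), against 6.81% of 10358 promoters of genes tested. TGACGTCA, the cyclic AMP response element bound by CREB, was found in 3 (10.3%, against 3.26%), in Btg2, Dusp1 and Maff. TGACTCA or its reverse complement TGAGTCA, the site of AP-1, was found in 2 (6.9%, against 3.21%), in Csrnp1 and Tnfaip3. The CArG box was found in 3 (10.3%, against 1.13%), in Srf, Egr2 and Dusp5. These are exact matches of letters, and no binding was measured here. Sites outside this window, or with other letters, were not counted, so a gene without a match may still hold such an element. The promoters of Btg2, Gadd45b and Tnfaip3 are shown because they are the called members that held a searched motif, and that of Srf because it held the CArG box, the motif that SRF is known to bind. Each runs 5′ to 3′ in the direction of transcription with the motifs in capitals.
Btg2: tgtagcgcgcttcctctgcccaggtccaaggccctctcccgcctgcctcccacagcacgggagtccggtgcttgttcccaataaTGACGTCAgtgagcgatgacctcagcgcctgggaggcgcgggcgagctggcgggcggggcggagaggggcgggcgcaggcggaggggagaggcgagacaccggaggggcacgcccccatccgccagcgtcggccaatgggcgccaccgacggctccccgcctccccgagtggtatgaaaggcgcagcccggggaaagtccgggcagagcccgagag
Gadd45b: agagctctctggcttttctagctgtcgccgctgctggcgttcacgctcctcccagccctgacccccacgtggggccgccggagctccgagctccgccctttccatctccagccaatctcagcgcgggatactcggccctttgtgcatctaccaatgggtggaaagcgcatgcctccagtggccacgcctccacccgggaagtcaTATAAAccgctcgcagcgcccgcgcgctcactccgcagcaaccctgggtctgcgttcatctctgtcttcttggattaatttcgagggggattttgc
Tnfaip3: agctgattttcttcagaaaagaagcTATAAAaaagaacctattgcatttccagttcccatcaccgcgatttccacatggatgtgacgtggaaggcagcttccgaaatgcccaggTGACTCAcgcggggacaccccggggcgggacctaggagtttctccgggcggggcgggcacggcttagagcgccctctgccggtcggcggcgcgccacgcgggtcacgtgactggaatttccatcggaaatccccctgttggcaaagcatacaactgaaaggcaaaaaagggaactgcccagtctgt
Srf: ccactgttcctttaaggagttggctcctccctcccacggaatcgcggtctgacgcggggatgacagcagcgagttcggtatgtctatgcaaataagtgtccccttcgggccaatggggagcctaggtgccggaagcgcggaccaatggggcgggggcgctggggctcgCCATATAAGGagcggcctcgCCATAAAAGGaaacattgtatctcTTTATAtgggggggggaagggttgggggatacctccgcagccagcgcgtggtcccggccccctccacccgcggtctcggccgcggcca

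These promoters lie at chr1:134079106-134079405 (minus strand, Btg2), chr10:80929841-80930140 (plus strand, Gadd45b), chr10:19015361-19015660 (minus strand, Tnfaip3) and chr17:46556113-46556412 (minus strand, Srf). Counted from the start site as base 0, the capitals mark TGACGTCA at -166 to -159 in Btg2 and TATAAA at -46 to -41 in Gadd45b. In Tnfaip3 they mark TATAAA at -225 to -220 and TGACTCA at -136 to -130. In Srf they mark CArG boxes at -82 to -73 and -62 to -53 and TATAAA, on the other strand, at -38 to -33, with no overlap between them. Among the tested members with a motif, Btg2 and Gadd45b were called higher and Tnfaip3 lower. Those not called were Btg1, Csrnp1, Dusp1, Dusp5, Fos, Junb, Maff, Nfkbia, Nr4a2 and Srf. The shares of all genes tested were 11.1% higher and 28.9% lower. Fos, which held TATAAA at -33 to -28, was not called, and Rhob, with the largest rise, held none of the 4 motifs in this window.

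Genes around the members were counted from lists made with earlier results of these data known. Of all genes tested 11.1% were called higher and 28.9% lower, and 20.3% and 20.5% with median-of-ratios factors. Among 23 genes that carry signals to immediate early promoters (ternary complex factors, SRF and CREB coactivators, CREB family members and kinases), 6 were called higher and 5 lower, with a median log2 fold change of -0.03. Creb1, which binds the cyclic AMP response element, was at 1010 and 957 in IAA libraries, against 700 and 746 in untreated libraries (log2 fold change 0.44, SE 0.06, adjusted p = 8.9e-06 in limma's test). Rps6ka5 (the kinase MSK1) and Elk3 (a ternary complex factor) had -0.42 and -0.41 and were called lower, but not with median-of-ratios factors (-0.32 and -0.31). With those factors 11 of the 23 were higher and 1 lower, and the list's median was 0.07. Among 12 feedback genes and other targets of ERK signalling, 1 was called higher and 7 lower, with a median of -0.53 and the same counts with median-of-ratios factors. Spry4, an inhibitor of receptor tyrosine kinase signalling, was at 28 and 21 in IAA libraries, against 90 and 93 in untreated libraries. Dusp4, an ERK phosphatase, was at 31 and 28 in IAA libraries, against 98 and 99 in untreated libraries. Etv1, an ETS factor, was at 38 and 36 in IAA libraries, against 95 and 91 in untreated libraries. All 3 were low in both IAA libraries (log2 fold changes -1.87, -1.71 and -1.31), whereas 4 genes of the ERK list were not called. Among the members, Fos, Dusp5 and Dusp1, also known as ERK targets, were not called. Of all members tested 9 were called higher and 5, with Ier3 and Nr4a1 among them, lower. Whether the ERK list and the members differ was not tested, and both groups of cells were grown with the MEK inhibitor.

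Of 21 factors that bind AU-rich elements or remove poly(A) tails, 3 were called higher and 7 lower, with a median log2 fold change of -0.12. With median-of-ratios factors 6 were higher and 6 lower. The shares of all genes tested were 11.1% higher and 28.9% lower, and 20.3% and 20.5% with median-of-ratios factors. Tob1, which like the BTG proteins binds the CCR4-NOT deadenylase, was at 1376 and 1339 in IAA libraries, against 1010 and 1077 in untreated libraries. Its paralogue Tob2 was at 542 and 481 in IAA libraries, against 381 and 408 in untreated libraries. Pan2, a subunit of a poly(A) nuclease, was at 854 and 791 in IAA libraries, against 1165 and 1152 in untreated libraries. Tob1 and Tob2 thus rose with Btg2 (log2 fold changes 0.38 and 0.37) while Pan2 fell (-0.49). Of 16 other mRNAs known for a short half-life, 5 were called higher and 1 lower, with a median of 0.08, which is 0.19 above that of all genes tested. Sertad1, a regulator of CDK4 and E2F, was at 249 and 263 in IAA libraries, against 147 and 171 in untreated libraries. Errfi1, a feedback inhibitor of the EGF receptor, was at 367 and 357 in IAA libraries, against 269 and 283 in untreated libraries. Per2, a circadian clock repressor, was at 24 and 17 in IAA libraries, against 5 and 10 in untreated libraries, so its log2 fold change of 1.38 (SE 0.42) rests on few reads.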

How the data were processed

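Poly(A) RNA libraries of degron cells were compared between IAA (2 libraries) and untreated (2 libraries), grouped by their titles. The submitters' processing notes list DESeq2, featureCounts, STAR, Bowtie2, cutadapt 1.18, SAMtools and deepTools, and as builds dm6 and mm10, with no role for any. The strandedness and annotation of the counting were not given in the sources used here. For 30282 genes the authors deposited a score per library, worked out from the values to be read counts divided by 1 size factor and rounded, here called normalised read counts. The deposited mean is a signal. From DESeq2 the authors deposited a log2 fold change, its error, a test score, and p-values with adjusted p-values. Whole reads were recovered from the deposited mean for 100% of genes (tolerance 0.001), giving size factors of 0.98 and 0.95 for IAA and 0.88 and 0.87 for untreated libraries. Divided by their geometric mean these are 1.067 and 1.034 for IAA and 0.958 and 0.947 for untreated libraries, whereas median-of-ratios factors were 1.039 and 0.990 for IAA and 0.984 and 0.988 for untreated libraries. Whether the deposited factors rest on the spike-in is not stated.

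Genes with a mean of at least 10 (14928; 15354 fell below) entered a fit of log2(value + 1) in limma 3.58.1 (empirical Bayes with a trend) in R 4.3.3, with Benjamini-Hochberg adjustment of the p-values over all of them and a call at an adjusted p under 0.05. Fold changes on this scale understate those of low genes. The recovered reads were used in voom as an alternative, and no count model was run. Chi-square per gene was 1.24 within IAA and 1.41 within untreated libraries, both above the 1 that sampling noise alone gives on average, and 9.49 to 9.96 between groups. All 4 libraries were kept as separate samples. The members and lists were chosen with earlier results of these data known, and no p was computed over a list. Every member was named, with library values for those called. Of each other list the 3 called genes of largest fold change were named, or the 2 of highest mean where none was called. The other tested markers of differentiated cells were named in addition. Exons, gene spans and 3′ UTRs came from GENCODE M21 (GRCm38), using 1 representative transcript per gene; promoters came from RefSeq. Other thresholds, filters, pseudocounts, scalings, voom on recovered reads, left-out libraries and a replicate block were tried. Precision is limited by 2 libraries per group, and intervals cover the spread between them only.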

Additional observations from a re-analysis of the deposited data

How the results depend on the processing

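With the deposited scaling, other pseudocounts kept the 14 called members, and voom on recovered reads added Dusp1. The scaling moved all genes together: median-of-ratios factors gave 3037 higher genes, 3 lower members and a members' median of 0.22, and library totals 3083, 3 and 0.23, against 1650, 5 and 0.12 with the deposited factors. Without a filter on low values there were 179 higher and 638 lower genes, and 2 members higher and 0 lower. At an unadjusted p under 0.05 in limma that setting gave 2743 higher and 5130 lower genes, and 11 members higher and 4 lower. At an adjusted p under 0.01 there were 1037 higher genes and 3 lower members. The authors' deposited adjusted p gave 284 higher and 1100 lower genes, and 5 members higher and 0 lower. Leaving out 1 library on the rounded values gave 0 calls of any gene in limma, at unadjusted counts of 1091 to 1588 genes higher and 3330 to 3682 lower; in 2.49% of genes both IAA libraries hold equal rounded values. Unrounded values were therefore added after seeing the data: without 1 library they gave 1146 to 1608 genes higher, 3471 to 3939 lower, 8 to 10 members higher, 3 to 4 lower, and without a filter 623 and 1919 genes, 5 members higher and 1 lower. The members' median was 0.06 without untreated replicate 1, 0.10 without IAA replicate 1 and 0.24 without either of the other libraries. Such fits take the lone library of a group to vary as those of the other do. With the replicate number as a block (replicate block) 8 members were higher and 4 lower, and of all genes 1647 and 4311. Klf10 and Sgk1 were no longer called (adjusted p 0.0554 and 0.0626 in limma's test). Same-numbered libraries did not deviate together (correlation 0.00), which cannot show whether they were paired by culture or day. The 14 called members kept their sign in every setting. Fosl2 and Klf6 changed sign with the scaling and, like Junb, Maff, Ier5, Btg1, Dusp5 and Nfkbia, without some library. These 8 were not called in any setting. Nor was Fos, whose log2 fold change of -0.00 became 0.10 with median-of-ratios factors. It was -0.06 without IAA replicate 1 and 0.06 without IAA replicate 2.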

Other observations

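Relatives of the members that were not on the list moved in both directions. Of 22 tested paralogues of members 8 were called higher and 6 lower after IAA, with a median log2 fold change of 0.13. With median-of-ratios factors 8 were higher and 4 lower. The shares of all genes tested were 11.1% higher and 28.9% lower, and 20.3% and 20.5% with median-of-ratios factors. Klf3, a KLF repressor, was at 1708 and 1671 normalised read counts in IAA libraries, against 1058 and 937 in untreated libraries (log2 fold change 0.76, SE 0.06, adjusted p = 5.41e-09 in limma's test). Btg3, a BTG protein, was at 372 and 347 in IAA libraries, against 252 and 247 in untreated libraries (log2 fold change 0.52). Csrnp3, a relative of Csrnp1, was at 108 and 111 in IAA libraries, against 192 and 174 in untreated libraries (log2 fold change -0.73), while Csrnp1 was not called.

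Of 8 tested bZIP partners, proteins that can pair with the small Maf or AP-1 members, 4 were called higher and 2 lower. The shares of all genes tested were 11.1% higher and 28.9% lower. Nfe2l2, the oxidative stress factor NRF2, was at 1247 and 1304 in IAA libraries, against 910 and 902 in untreated libraries (log2 fold change 0.49). Mafg, the third small Maf, was at 1505 and 1432 in IAA libraries, against 1086 and 1100 in untreated libraries (log2 fold change 0.43), and so was called although Maff and Mafk were not; these differences were not tested. Bach2, a repressor that pairs with small Maf proteins, was at 18 and 18 in IAA libraries, against 41 and 55 in untreated libraries (log2 fold change -1.35).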
